A study of Homo sapiens with 2 samples.

Results

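CDC7, CDCA7 and BRCA1 are genes of DNA replication and repair, and their transcripts were counted cell by cell in chemoresistant and treatment-naïve SUM159 cells. The 3 genes were taken by name out of 373 genes that the matrices list in all. SUM159 is an established triple-negative breast cancer line, given in the labels with the genotype Wt. It was grown attached (2D) or as spheroids (3D), and each culture held 3 populations, of which 1 was treatment-naïve, 1 resistant to paclitaxel and 1 resistant to doxorubicin. Resistance was raised in attached cells over a long course of rising drug doses, with doxorubicin given in short exposures between which the cells recovered without it. Paclitaxel stabilises microtubules, and doxorubicin is an anthracycline that damages DNA. Each resistant population was a single line, and none of the 6 populations was replicated. The spheroids grew in Matrigel and in another medium than the attached cells, and they were loaded on a cartridge of their own. The effects of culture, medium and cartridge therefore cannot be told apart.

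The origin firing kinase CDC7 acts with its partner DBF4 on the MCM helicase and so starts DNA synthesis at licensed origins. The zinc finger protein CDCA7 works with the chromatin remodeller HELLS in keeping DNA methylated after replication. BRCA1 is a ubiquitin ligase, active with BARD1, that directs double-strand breaks to homologous recombination and protects stalled forks. Inherited loss of BRCA1 predisposes to breast cancer, often of the triple-negative kind. Transcription of many replication genes is known to peak as cells enter S phase under E2F factors, whereas genes of mitosis peak later.

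On the GRCh38.p14 assembly, RefSeq places CDC7 on chromosome 1 from 91500851 to 91525764, CDCA7 on chromosome 2 from 173354872 to 173368997, and BRCA1 on the minus strand of chromosome 17 from 43044295 to 43170327. The 150 bases before a start of each gene are shown because all 3 hold the same E2F-like heptamer, marked by capitals. The motif was searched on either strand as TTCCCGC in its main form, as TTGGCGC in another form, as TTCGCGC in a further form and as TTGCCGC in the last form. Every match in these genes was of the main form or its reverse complement.
CDC7 (chr1:91500701-91500850, plus strand): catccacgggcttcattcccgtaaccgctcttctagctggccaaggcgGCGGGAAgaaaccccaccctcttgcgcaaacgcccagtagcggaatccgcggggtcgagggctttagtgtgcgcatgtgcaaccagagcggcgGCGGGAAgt
CDCA7 (chr2:173354722-173354871, plus strand): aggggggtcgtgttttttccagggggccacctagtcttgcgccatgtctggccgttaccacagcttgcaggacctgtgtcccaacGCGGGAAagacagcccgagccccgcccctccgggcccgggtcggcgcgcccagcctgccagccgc
BRCA1 (chr17:43125365-43125514, minus strand): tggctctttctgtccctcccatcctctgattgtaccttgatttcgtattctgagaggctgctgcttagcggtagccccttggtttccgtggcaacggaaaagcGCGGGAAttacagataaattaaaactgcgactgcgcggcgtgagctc

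The CDC7 stretch held 2 matches, whose first bases lay at -102 and -9 from the start, the CDCA7 stretch held 1 at -65 and the BRCA1 stretch 1 at -47. RefSeq lists another CDC7 window, with 2 matches, and a far upstream BRCA1 window, with 0. Over windows of 300 bases, the motif was present in 13.0% of 34796 RefSeq windows, in 19.5% of the 256 panel genes that had a window, and in 7 of 9 genes of the replication list used below. A match of letters is a description and shows no binding.

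The attached matrices held 5305 treatment-naïve cells, and 5896 and 7032 cells resistant to paclitaxel and to doxorubicin, and the spheroid matrices 4362, 3751 and 3776 cells in that order. Median depth was 3653 to 3814 molecules (unique molecular identifiers, UMIs) per attached cell and 1538.5 to 2340.0 per spheroid cell. The cartridges had 264 cell barcode numbers in common, and no number occurred in more than 1 population of a cartridge. Mesenchymal markers led by VIM summed to between 80016 and 210684 UMIs scaled to a total of 1000000 (CPM), epithelial-like markers to between 1569 and 6400 CPM. Of the leukocyte lists, T and NK markers summed to 8.12 to 83.2 CPM, B lineage markers to 23.2 to 1758 CPM (led by FCRLA, but by TCL1A at 75.4 CPM in doxorubicin-resistant spheroids) and myeloid markers to 112 to 711 CPM (mostly CD14), with no marker at 0 in any population. Fibroblast markers, which mesenchymal cancer cells share, summed to 1930 to 8899 CPM. The part of these levels in the results was not tested. CPM was computed from UMIs summed over all cells of a population.

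All 3 genes had their lowest levels in treatment-naïve cells and their highest in attached doxorubicin-resistant cells, with paclitaxel-resistant cells between them in each culture. CDC7 was at 282 CPM (95% interval 275 to 289), 603 (593 to 613) and 797 (787 to 808) in attached naïve, paclitaxel- and doxorubicin-resistant cells, and at 291 (281 to 301), 360.5 (348 to 374) and 435 (422 to 447) in the same spheroid populations. The intervals of the treatment-naïve cultures overlapped, and all other neighbours in the order of CDC7 levels were apart. All intervals cover counting error only and none the spread between cultures, so no test was possible.

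CDCA7 was at 149 CPM (144 to 154), 395 (387 to 403) and 897 (886 to 907) in attached cells and at 149 (142 to 157), 269.9 (259 to 281) and 454 (441 to 467) in spheroids, in the same order of populations. Here too the treatment-naïve cultures overlapped, while spheroid doxorubicin-resistant cells stood above attached paclitaxel-resistant ones. BRCA1 was at 259.8 CPM (253 to 267), 571 (561 to 581) and 859 (849 to 869.8) in attached cells and at 231 (222 to 239.6), 339.8 (327 to 352) and 467 (454 to 481) in spheroids. No neighbours overlapped for BRCA1, and its lowest level was that of treatment-naïve spheroids. These levels rested on 1688 to 26405 UMIs per gene and population.

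**Figure D1:**
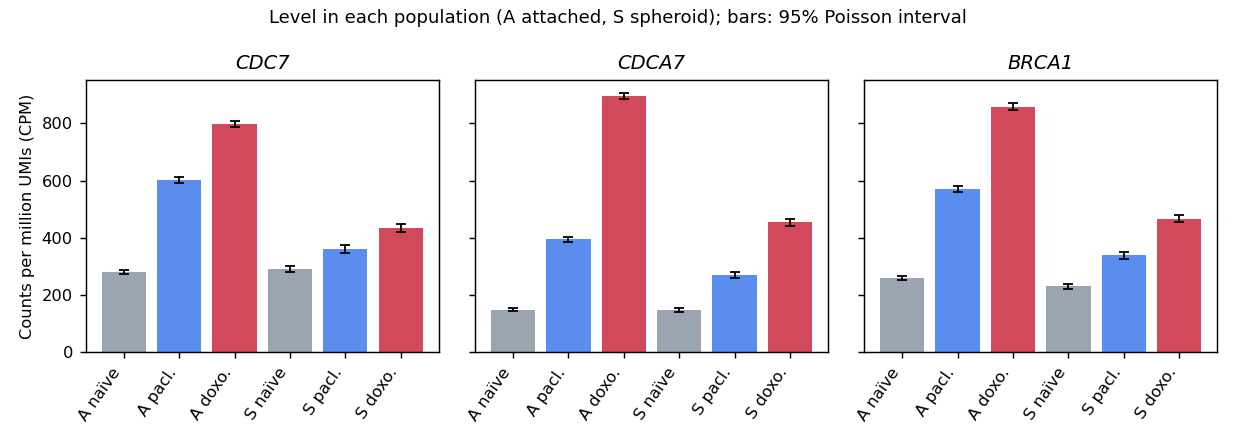
Level of each gene in CPM (y axis) in the 6 populations (x axis, A attached and S spheroid), with 95% Poisson intervals as error bars. In both cultures the order was treatment-naïve, paclitaxel-resistant, doxorubicin-resistant, and attached doxorubicin-resistant cells were highest at 797, 897 and 859 CPM for CDC7, CDCA7 and BRCA1. Under unscaled totals the paclitaxel-resistant spheroids fell below the treatment-naïve ones for CDC7, at 0.927-fold.

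In attached paclitaxel-resistant cells all 3 genes were more than 2-fold higher than in treatment-naïve cells. CDC7 was 2.14-fold (2.08 to 2.21) higher, CDCA7 2.65-fold (2.55 to 2.76) and BRCA1 2.20-fold (2.13 to 2.27). The size rule used here asks for a fold of 2 or more and for 50 UMIs or more in whichever population is higher. It was passed upward by 3 of 3 members and by 20.2% of the 262 genes measured in this comparison, and downward by 0 members and 25.2% of genes. CDCA7 ranked 37 from the top of these genes, BRCA1 46 and CDC7 49. The members, and the gene lists used below, were chosen with earlier results of these data known. Their counts beside the shares of all genes are therefore a description only.

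Attached doxorubicin-resistant cells differed more from treatment-naïve cells, and CDCA7 stood out among the 3 genes. CDCA7 was 6.02-fold (5.81 to 6.25) higher, BRCA1 3.31-fold (3.21 to 3.41) and CDC7 2.83-fold (2.75 to 2.91). Again 3 of 3 members passed the rule upward, beside 24.3% of 268 measured genes, and 0 downward, beside 22.8%. The ranks from the top were 24 for CDCA7, 38 for BRCA1 and 48 for CDC7. Both comparisons use the same treatment-naïve cells.

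Set against paclitaxel-resistant cells directly, attached doxorubicin-resistant cells had 2.27-fold (2.22 to 2.32) more CDCA7, 1.51-fold (1.47 to 1.54) more BRCA1 and 1.32-fold (1.30 to 1.35) more CDC7. Only CDCA7, 1 of 3, passed the rule, as did 13.8% of 261 genes upward and 9.96% downward.

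In spheroids the same order of genes was seen with smaller folds. Paclitaxel-resistant spheroids held 1.81-fold (1.70 to 1.93) the CDCA7 level of treatment-naïve spheroids and 1.47-fold (1.40 to 1.55) the BRCA1 level. CDC7 was at 1.24-fold (1.18 to 1.30), a direction that turned to 0.927-fold with unscaled totals. Over the alternative settings CDCA7 ranged from 1.28 to 2.19 and BRCA1 from 1.10 to 1.78, beyond their counting intervals. None of the 3 genes passed the rule, against 9.92% of 252 genes upward and 20.2% downward.

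Doxorubicin-resistant spheroids had 3.04-fold (2.88 to 3.22) more CDCA7 and 2.03-fold (1.93 to 2.13) more BRCA1 than treatment-naïve spheroids, and 1.5-fold (1.43 to 1.56) more CDC7. The rule was passed upward by 2 of 3, CDCA7 and BRCA1, beside 16.5% of 260 genes, and 0 downward, beside 17.3%. BRCA1 lay at the edge of the rule and was under it in 4 alternatives. Over the alternative settings BRCA1 ranged from 1.88 to 2.35, CDCA7 from 2.32 to 3.53 and CDC7 from 1.25 to 1.74. Between the resistant spheroids the doxorubicin-resistant cells were higher by 1.68-fold (1.60 to 1.77) for CDCA7, 1.38-fold (1.31 to 1.44) for BRCA1 and 1.21-fold (1.15 to 1.26) for CDC7, and 0 of 3 passed the rule, against 12.7% of 251 genes upward and 4.78% downward.

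The attached fold was larger than the spheroid fold for every gene and drug. For paclitaxel the ratio of the attached to the spheroid fold was 1.72 (1.63 to 1.83) for CDC7, 1.47 (1.36 to 1.58) for CDCA7 and 1.49 (1.40 to 1.59) for BRCA1. For doxorubicin it was 1.89 (1.79 to 2.00), 1.98 (1.85 to 2.12) and 1.63 (1.54 to 1.72). These intervals lie above 1 on counting error, and no test of the difference was possible without replicates.

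**Figure D2:**
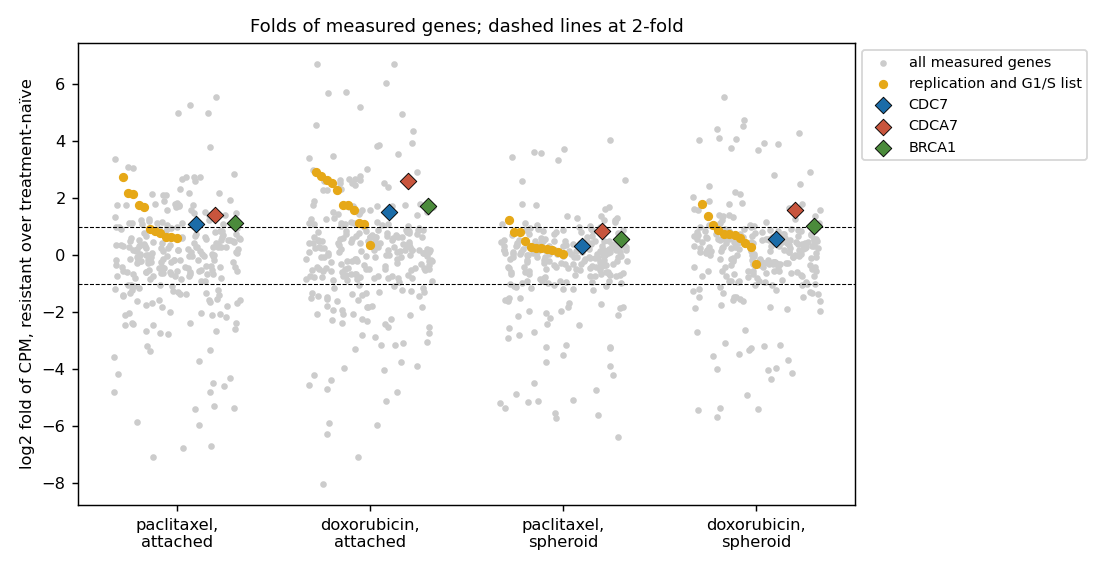
Log2 fold of CPM, resistant over treatment-naïve (y axis), for all measured genes (grey), the replication list (yellow) and CDC7, CDCA7 and BRCA1 (diamonds) in 4 comparisons (x axis). The diamonds lie at 1.10, 1.41 and 1.14 for paclitaxel and at 1.5, 2.59 and 1.73 for doxorubicin in attached cells, and lower in spheroids. With unscaled totals the CDC7 diamond for paclitaxel-resistant spheroids would lie below 0.

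Of the genes of DNA replication and entry into S phase, most passed the rule upward for doxorubicin in attached cells and few in spheroids. Of 22 listed genes, 11 are in the matrices and the others are not analysed here. In attached cells 5 of 11 passed the rule upward for paclitaxel and 10 of 11 for doxorubicin, and in spheroids 1 and 3 of 11, with 0 downward in each. Over all measured genes the shares passing upward were 20.2%, 24.3%, 9.92% and 16.5% in that order, so that the spheroid paclitaxel count was near the background. The list's median log2 fold was 0.91 and 1.78 in attached cells and 0.26 and 0.73 in spheroids, beside -0.02, 0.13, 0.00 and 0.20 over all measured genes. All 3 members lay above the list's median except for doxorubicin, where CDC7 (attached and spheroid) and BRCA1 (attached) were below it.

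TYMS, thymidylate synthase, had the largest fold of the list in all 4 comparisons, at 6.75 and 7.59 in attached and 2.36 and 3.51 in spheroid cells for paclitaxel and doxorubicin. The cyclin gene CCNE2 followed in attached cells at 4.51 and 6.83 but was at 1.20 and 1.22 in spheroids. At the low end for paclitaxel were RFC4, a clamp loader subunit (1.53), and CDK2 (1.54) in attached cells, and CDK2 (1.03) and CCNE1 (1.07) in spheroids. For doxorubicin, DCK, the deoxycytidine salvage kinase, was lowest at 1.28 and 0.805, followed by CDK2 at 2.16 in attached cells and CCNE2 in spheroids. MCM6, a subunit of the helicase that CDC7 acts on, was at 1.74-fold in paclitaxel-resistant spheroids, and MYBL2, a cell cycle transcription factor, at 2.60-fold in doxorubicin-resistant ones.

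Among 4 repair genes measured of 12 listed, only UBE2T, the ubiquitin conjugating enzyme of the Fanconi pathway, passed the rule, at 2.23-fold for paclitaxel and 2.85-fold for doxorubicin in attached cells. In spheroids it was at 1.38 and 1.81. The break-sensing kinase gene ATM was at 0.640 and 0.718 in attached and 0.799 and 0.969 in spheroid cells, and the helicase gene RECQL5 at 1.09, 1.21, 1.17 and 1.46. BRCA1 thus had a larger fold than ATM and RECQL5 in all 4 comparisons, while UBE2T was above BRCA1 only for paclitaxel in attached cells.

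Of 16 measured mitosis genes, 1 and 3 passed the rule upward in attached cells and 1 and 4 in spheroids for paclitaxel and doxorubicin, beside 20.2%, 24.3%, 9.92% and 16.5% of all measured genes, with medians of 0.39, 0.60, 0.50 and 0.87 on the log2 scale. The highest were ANLN in attached cells, at 2.37 and 3.24, and UBE2C in spheroids, at 2.12 and 2.56. KIF2C was lowest in attached cells at 0.979 and 1.14, and BIRC5 in spheroids at 1.09 and 1.38. Summed mitosis transcripts moved with the members, from 41064 to 60319 and 69334 CPM in attached cells and from 19050.0 to 28211 and 36731 CPM in spheroids. Their part in the member folds is described below by grouping cells, and a cause was not tested.

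Between cultures, the treatment-naïve cells had nearly equal CPM of the 3 genes from summed UMIs, and the resistant cells had less in spheroids. CDC7 was at 1.03-fold (0.988 to 1.08), CDCA7 at 1.00-fold (0.945 to 1.06) and BRCA1 at 0.888-fold (0.847 to 0.930) in treatment-naïve spheroids against attached cells, and with unscaled totals these became 0.544, 0.529 and 0.468. When each cell's own CPM was averaged, CDC7 was at 1.21-fold and CDCA7 at 1.36-fold, and BRCA1 turned to 1.07-fold. The near-equality thus depended on the scaling. Over all measured genes the median log2 fold was -0.33 here, and -0.12 with median-of-ratios size factors. None of the 3 passed the rule, against 18.2% of 264 genes upward and 24.2% downward.

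In paclitaxel-resistant spheroids BRCA1 was 1.68-fold (1.61 to 1.75) lower than in attached cells, CDC7 1.67-fold (1.61 to 1.74) and CDCA7 1.46-fold (1.40 to 1.53). In doxorubicin-resistant spheroids CDCA7 was 1.97-fold (1.91 to 2.04) lower and CDC7 and BRCA1 each 1.84-fold. Again 0 of 3 passed the rule in either population, against 24.3% of 255 and 15.7% of 268 genes downward and 14.5% and 17.9% upward. All measured genes had a median log2 fold of -0.41 and -0.34 in these comparisons, and of -0.04 and -0.13 with median-of-ratios size factors. With these factors CDC7, CDCA7 and BRCA1 were at 0.773-, 0.884- and 0.770-fold in paclitaxel-resistant spheroids against attached cells. In doxorubicin-resistant ones they were at 0.628-, 0.584- and 0.627-fold. Mitosis genes were lower past the rule in spheroids for 10, 12 and 4 of 16 in naïve, paclitaxel- and doxorubicin-resistant cells.

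More cells held a transcript of each gene in the resistant populations, and positive attached cells also held more copies. To compare shares at 1 depth, each cell was thinned to 1000 UMIs, which left out 1920, 1587 and 1218 spheroid cells of the treatment-naïve, paclitaxel-resistant and doxorubicin-resistant populations and 1 attached cell. After thinning, CDC7 was detected in 21.7%, 39.3% and 50.9% of attached and 23.5%, 26.4% and 34.1% of spheroid cells in the order treatment-naïve, paclitaxel-resistant, doxorubicin-resistant. Before thinning the shares were 54.3%, 74.8% and 85.7%, and 32.7%, 37.8% and 49.2%. The treatment-naïve spheroids thus had a lower CDC7 share than attached cells as deposited and one of overlapping interval (21.8 to 25.2, against 20.6 to 22.8) at equal depth.

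CDCA7 was detected after thinning in 11.6%, 23.3% and 39.8% of attached and 9.83%, 18.7% and 26.9% of spheroid cells, against 29.3%, 45.5% and 64.4%, and 15.1%, 24.4% and 36.0%, before it. BRCA1 was detected in 18.1%, 32.0% and 47.1% of attached and 16.0%, 21.2% and 29.4% of spheroid cells, against 42.3%, 57.0% and 75.7%, and 23.3%, 27.6% and 41.8%, before thinning. The order of populations within a culture was the same for all 3 genes with and without thinning. No population here should lack these genes, so the shares of leukocyte genes are given instead, and they differed widely. LYZ of myeloid cells was detected in at most 0.164% of thinned cells, CD79A of B cells in 0.396% to 0.508%, CD3D and TRAC of T cells in at most 2.15% and 2.95%, and CD14 of myeloid cells in 5.59% to 26.1%.

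In doxorubicin-resistant cells CDCA7 had the most copies per positive cell of the 3 genes, while in paclitaxel-resistant cells CDCA7 and BRCA1 were alike. In thinned attached cells with at least 1 CDCA7 UMI the mean was 1.32, 1.62 and 2.21 UMIs in naïve, paclitaxel- and doxorubicin-resistant cells, and in spheroids 1.45, 1.40 and 1.75. BRCA1 went from 1.32 to 1.61 and 1.78 in attached cells and from 1.34 to 1.40 and 1.47 in spheroids. CDC7 went from 1.23 to 1.43 and 1.55 in attached cells and stayed at 1.25 to 1.28 in spheroids. The share of thinned cells with 3 or more CDCA7 UMIs was 0.792%, 3.27% and 12.2% in attached and 0.983%, 1.66% and 4.85% in spheroid cells. The largest unthinned count in 1 cell was 66 UMIs for CDCA7, in an attached doxorubicin-resistant cell.

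The cells with the most transcripts of each gene held a smaller share of them in the resistant populations. The 10% of cells with the most CDCA7 held 65.1%, 56.9% and 47.0% of its UMIs in attached and 86.9%, 71.5% and 65.6% in spheroid cells, in the same order of populations. For BRCA1 the top cells held 52.5%, 44.2% and 34.9%, and 74.5%, 68.0% and 54.5%. For CDC7 they held 42.4%, 35.1% and 29.2%, and 61.0%, 52.6% and 46.5%. These shares depend on depth, which was lower in spheroids. They also fall as the level of a gene rises, and the levels were higher in resistant populations. A wider spread over cells therefore cannot be told apart from a higher level.

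The 3 genes were found together in the same cells thinned to 1000 UMIs more often than the product of their shares in every population. When thinned to 500 UMIs, CDC7 with CDCA7 in paclitaxel-resistant spheroids had a ratio of 0.986 to that product. CDC7 and BRCA1 were both detected in 6.47% (5.82 to 7.16), 17.4% (16.4 to 18.4) and 27.9% (26.9 to 29.0) of attached and 6.39% (5.45 to 7.43), 7.72% (6.63 to 8.92) and 11.7% (10.5 to 13.0) of spheroid cells. The ratio to the product was 1.64, 1.38 and 1.17 in attached cells and 1.70, 1.38 and 1.17 in spheroids. It was nearest to 1 in doxorubicin-resistant cells, where each gene was most widespread.

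CDCA7 and BRCA1 had the largest ratio of the pairs in 5 of 6 populations, at 1.36, 1.63 and 1.22 in attached and 2.06, 1.73 and 1.5 in spheroid cells. The exception was attached treatment-naïve cells, where CDC7 and BRCA1 were higher. When thinned to 500 UMIs, CDCA7 with BRCA1 was not the largest in doxorubicin-resistant spheroids. It was at 1.31 there, beside 1.33 for CDC7 with CDCA7 and 1.32 for CDC7 with BRCA1. CDC7 and CDCA7 were at 1.35, 1.26 and 1.13 in attached and 1.74, 1.26 and 1.22 in spheroid cells. In attached paclitaxel-resistant cells BRCA1 was found in 52.3% (49.6 to 54.9) of cells with CDCA7 and in 25.9% (24.6 to 27.2) of cells without it. The correlation of log2(1 + UMIs) across cells was weak for every pair, with Pearson's r of 0.076 to 0.298 over the populations. By r, CDC7 with BRCA1 was also above CDCA7 with BRCA1 in treatment-naïve spheroids, at 0.197 against 0.178. Cells of 1 population share a library and are no replicates.

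All 3 transcripts were present together in 1.36%, 6.94% and 14.4% of attached and 1.64%, 2.87% and 5.20% of spheroid cells, against products of 0.455%, 2.94% and 9.53%, and 0.368%, 1.05% and 2.70%. None of the 3 was found in 60.0%, 39.4% and 21.6% of attached and 62.7%, 51.6% and 39.2% of spheroid cells. As deposited, without thinning, all 3 were found in 11.9%, 30.5% and 50.2% of attached and 6.88%, 11.7% and 19.4% of spheroid cells.

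**Figure D3:**
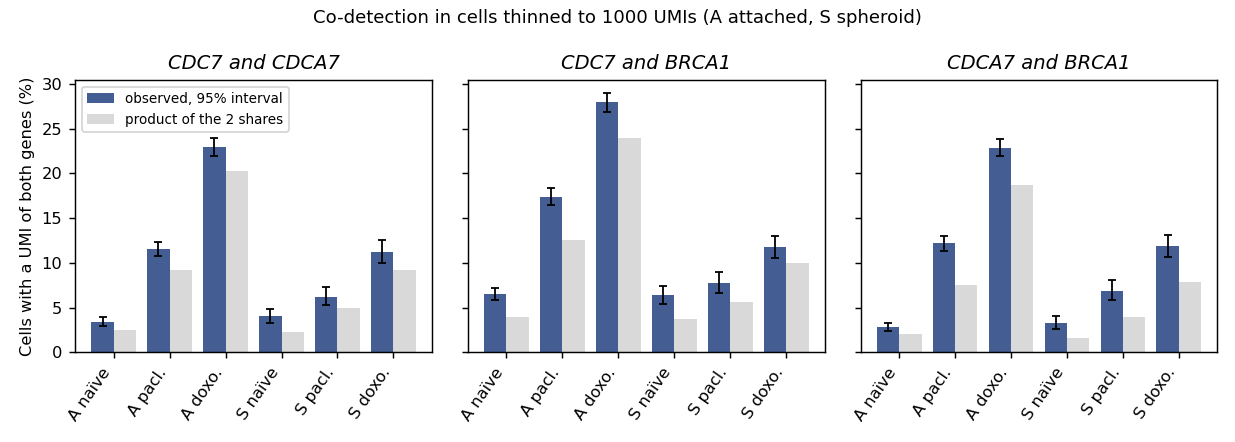
Share of thinned cells with a UMI of both genes of a pair (dark bars, 95% Clopper-Pearson interval) beside the product of the 2 single shares (light bars), in the 6 populations (x axis, A attached and S spheroid). At this depth of 1000 UMIs the dark bar is above the light one for every pair and population, and CDC7 with BRCA1 reached 27.9% in attached doxorubicin-resistant cells.

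The genes most like each member, by the mean over the 6 populations of r across thinned cells among 212 genes ranked, were mostly of the replication list. For CDC7 they were TYMS (0.221), RRM2 (0.212), UBE2T (0.210), RFC4 (0.208) and MYBL2 (0.200). For CDCA7 they were MCM6 (0.319), CDC6 (0.248), RFC4 (0.246), TYMS (0.244) and BRCA1 (0.206). For BRCA1 they were RRM2 (0.394), TYMS (0.387), MYBL2 (0.362), RFC4 (0.337) and UBE2T (0.330). MCM6 and the licensing factor gene CDC6 headed the CDCA7 list only, while RRM2, a ribonucleotide reductase subunit, was named for CDC7 and BRCA1. The median over all ranked genes was 0.003 to 0.007, and all of these are correlations within sparse counts, given as a description.

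When thinned cells of a population were put in 4 groups, divided at the quartiles of their summed UMIs of the 11 replication genes without the members, each member was higher in each next group in all 6 populations. Because of ties the groups were unequal, with 849, 574, 456 and 563 cells in treatment-naïve spheroids. From the lowest to the highest group CDCA7 went from 0.283 over 0.675 and 1.07 to 1.58 UMIs per 1000 in attached doxorubicin-resistant cells. The highest group held 3.50 to 11.7 times the CDCA7 of the lowest over the populations. BRCA1 had ratios of 8.90 to 18.0 and CDC7 of 2.69 to 4.28. BRCA1 had the steepest gradient in all 6 populations. CDC7 had the flattest in 5, the exception being attached treatment-naïve cells, with 3.66 for CDC7 and 3.50 for CDCA7.

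Grouped by the 16 mitosis genes instead, CDCA7 separated from BRCA1 and CDC7 in its course over the groups in treatment-naïve cells. CDCA7 was highest in group 2 or 3 and lower again in group 4, the top group, in all 6 populations. In attached doxorubicin-resistant cells it was at 0.574, 1.65, 0.959 and 0.364 UMIs per 1000 from the lowest to the top group, so that the top group held 0.635 (0.574 to 0.701) times the lowest. In attached paclitaxel-resistant cells it was at 0.154, 0.566, 0.611 and 0.220. BRCA1 was higher in the top than in the lowest group everywhere, by 1.96 to 11.7 times, and CDC7 by 1.58 to 3.12 times. In treatment-naïve cells of both cultures BRCA1 and CDC7 were higher in each next group, whereas in the resistant populations BRCA1 was highest in group 2 or 3. CDC7 went from group 3 to group 4 from 0.940 to 0.799 in attached doxorubicin-resistant cells and stayed at 0.691 in attached paclitaxel-resistant ones. In spheroids it went from 0.591 to 0.494 for doxorubicin and from 0.436 to 0.391 for paclitaxel. A fall in the top group was thus not particular to CDCA7 in resistant cells.

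**Figure D4:**
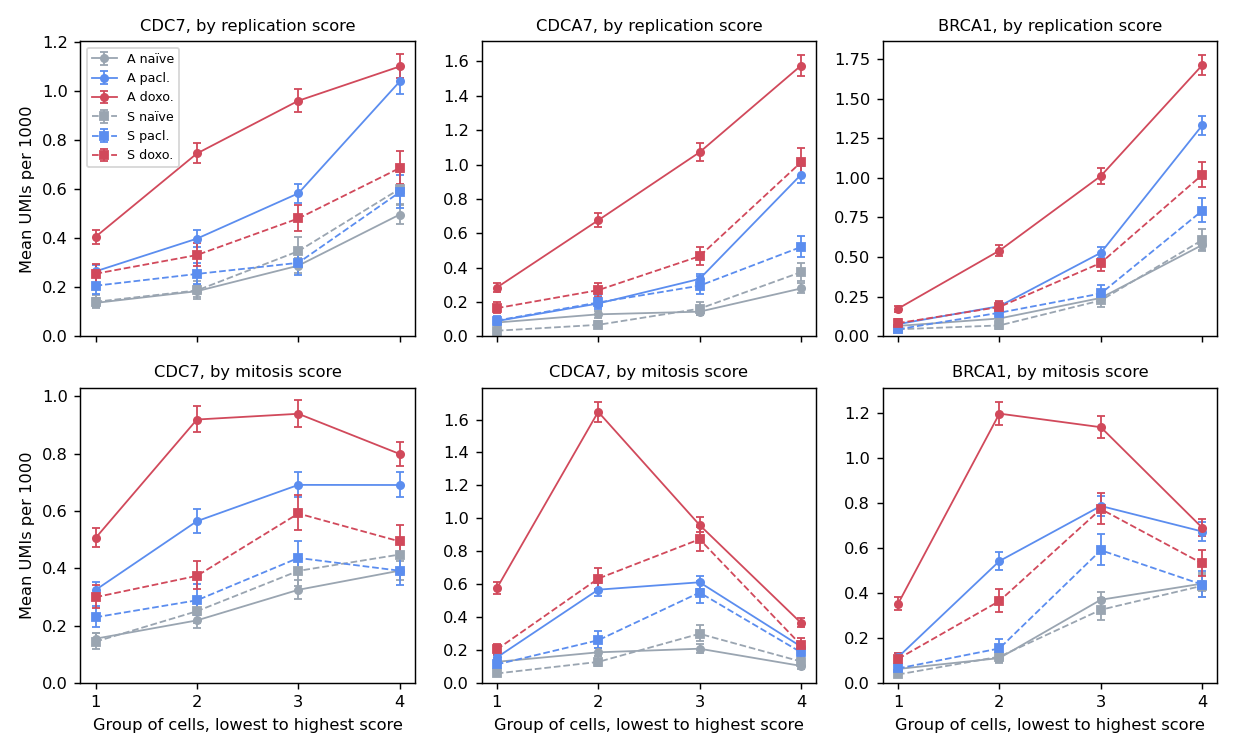
Mean UMIs per 1000 of each gene (y axis, 95% Poisson interval) in 4 groups of thinned cells from the lowest to the highest summed UMIs of the replication list (top row) or the mitosis list (bottom row), a line per population (A attached, solid; S spheroid, dashed). Every line climbs in the top row, and every CDCA7 line comes down in the last mitosis group, from 0.959 to 0.364 in attached doxorubicin-resistant cells. The BRCA1 lines of the resistant populations come down there too.

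Resistant populations held more cells with many replication transcripts. With limits set on all thinned cells of a culture, the highest of 4 ranges of the replication sum took 2.39% of attached treatment-naïve, 25.1% of paclitaxel-resistant and 41.1% of doxorubicin-resistant cells, and the lowest range 53.8%, 21.2% and 9.68%. In spheroids the highest range took 13.8%, 22.6% and 34.6% and the lowest 48.6%, 31.5% and 17.7%. These ranges were chosen after the data had been seen.

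Within ranges of the replication sum most folds were smaller than over all cells, and for BRCA1 they lay between 0.561 and 1.45 in the 4 drug comparisons. In attached doxorubicin-resistant against treatment-naïve cells, BRCA1 was at 1.12-fold (0.839 to 1.48), 0.729 (0.628 to 0.845), 0.927 (0.823 to 1.05) and 1.22 (1.04 to 1.44) from the lowest to the highest range, against 3.31 in all cells. CDCA7 was at 1.73 (1.38 to 2.15), 2.34 (2.01 to 2.74), 2.11 (1.81 to 2.48) and 2.15 (1.73 to 2.71), against 6.02. CDC7 was at 1.84 (1.55 to 2.18), 1.43 (1.28 to 1.61), 1.48 (1.30 to 1.68) and 1.18 (0.982 to 1.44), against 2.83. CDCA7 was thus higher in doxorubicin-resistant cells in every range of this comparison.

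In attached paclitaxel-resistant cells the ranges gave BRCA1 folds of 0.561 to 1.09, CDCA7 folds of 0.774 to 1.39 and CDC7 folds of 1.07 to 1.63. In doxorubicin-resistant spheroids CDCA7 was at 3.25, 1.87, 1.63 and 2.00, with all intervals above 1, while BRCA1 was at 0.937 to 1.45 and CDC7 at 0.868 to 1.66. In paclitaxel-resistant spheroids CDCA7 was at 1.23 to 2.35, BRCA1 at 0.820 to 1.09 and CDC7 at 0.654 to 1.35. The highest range rests on 127 attached and 337 spheroid treatment-naïve cells. Cells of a range can still differ in their sums and in the make-up of these sums. RFC4 led the sum in attached treatment-naïve cells, with 18.4% of it. TYMS led it in attached paclitaxel- and doxorubicin-resistant cells, with 30.1% and 24.4%, and throughout the spheroids, with 15.7%, 25.3% and 27.8%. Equal sums thus need not mean equal levels of each list gene, and what sets the sum was not tested.

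Within ranges of the mitosis sum the attached folds reached higher values. For doxorubicin, CDCA7 was at 1.73, 4.59, 8.85 and 3.89, CDC7 at 1.86 to 2.74 and BRCA1 at 1.69 to 3.24. For paclitaxel, CDCA7 was at 1.02 to 4.05, CDC7 at 1.66 to 2.01 and BRCA1 at 1.38 to 2.15. In spheroids CDCA7 was at 1.44 to 3.43 for doxorubicin and 1.02 to 2.08 for paclitaxel, BRCA1 at 0.944 to 1.54 and 0.904 to 1.31, and CDC7 at 1.11 to 1.51 and 0.898 to 1.37.

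**Figure D5:**
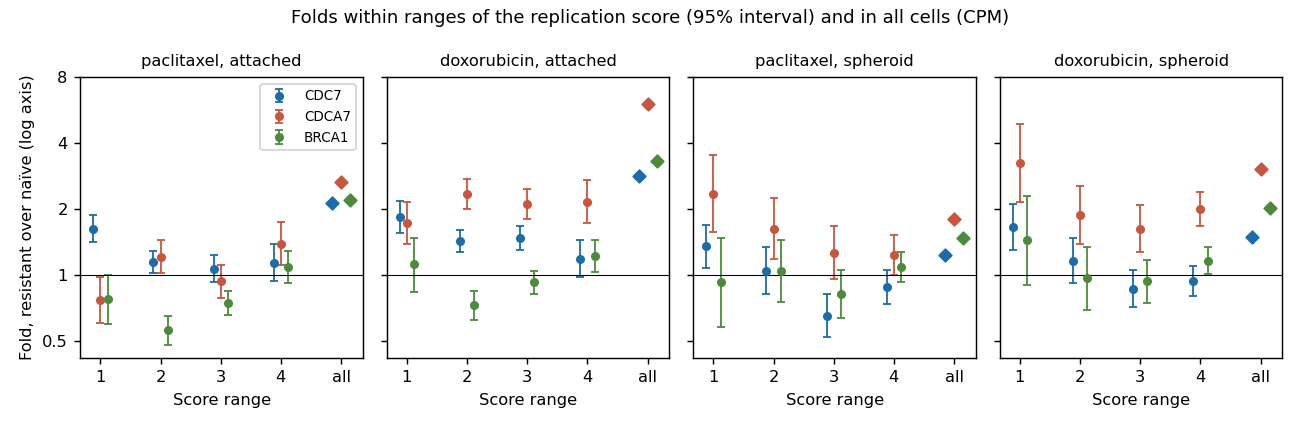
Fold of each gene, resistant over treatment-naïve (y axis, log scale, 95% interval), in thinned cells within ranges 1 (lowest) to 4 (highest) of the replication sum, and in all cells by CPM (diamonds). For doxorubicin in attached cells CDCA7 lies between 1.73 and 2.34 within ranges against 6.02 in all cells, and BRCA1 between 0.729 and 1.22 against 3.31. With unscaled totals the diamond of CDC7 in paclitaxel-resistant spheroids would lie below 1.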

How the data were processed

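Targeted single-cell RNA-seq (BD Rhapsody, breast cancer panel) was performed on attached and spheroid SUM159 cells, 2 samples with 3 tagged populations each. The authors deposited counts, that is UMIs per panel gene and cell after RSEC adjustment on a cloud platform. The submitters' notes name hg38. Cell filters before deposit are not given in the sources used here. Files were assigned to populations by their names, since the labels tie tags to populations but not to files, and the labels of the spheroid sample call the drug populations treated where the series design calls them resistant.

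UMIs were summed per population (8452574 to 29451390 in total) and scaled to 1000000 (CPM), with exact Poisson intervals, exact conditional binomial intervals for folds and exact Clopper-Pearson intervals for shares, all at 95%. Python 3.11.15, NumPy 2.4.6, SciPy 1.17.1 and pandas 2.3.3 were used. A gene was measured with at least 50 UMIs in either population. All deposited barcodes were used and no doublet caller was run. Without replicates no test was made. The steps were checked on simulated counts. The members and the 3 gene lists were chosen with earlier results of these data known. Genes named were the members, the 5 genes most correlated with each among those with at least 50 UMIs in every population, the 2 highest and lowest of the replication and repair lists and the highest and lowest of the mitosis list. A gene that this rule names is not reported here. Alternatives changed scaling, cells, minimum count, threshold and thinning depth. Promoter sequences and positions came from RefSeq, GRCh38.p14, and all 3 members were matched by symbol.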

Additional observations from a re-analysis of the deposited data

How the results depend on the processing

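No paired analysis was possible because no population was replicated, and the 3 tagged populations of a culture made up 1 sample. Counts of members past the size rule were unchanged, or within 1.5 times, in 66 of 81 settings. With unscaled totals they became 1 for doxorubicin-resistant against treatment-naïve spheroids (2 as reported), 1 between the resistant spheroids (0), and 1, 3 and 3 for spheroid against attached cells that were treatment-naïve, resistant to paclitaxel and resistant to doxorubicin (0 each, all lower). The doxorubicin spheroid count was also 1 with median-of-ratios size factors, with the mean of each cell's CPM and without the 5% of barcodes with the most UMIs, which gave 1 for doxorubicin-resistant spheroid against attached cells. Leaving the 5 most abundant genes out of totals gave 1 for paclitaxel-resistant spheroids. A 1.5-fold threshold gave 1 for paclitaxel-resistant spheroids, 2 and 1 between the drugs in attached and spheroid cells, and 2 and 3 between cultures for paclitaxel- and doxorubicin-resistant cells. The causes were not tested.

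Of 189 planned fold settings run, 88 stayed within their spread and 101 moved beyond it. No fold that passed the rule changed direction in them. Within score ranges, chosen after the data were seen, some folds that passed the rule over all cells had values below 1. In attached paclitaxel-resistant cells CDCA7 was at 0.774 (0.608 to 0.978) and 0.938 (0.790 to 1.12) in replication ranges 1 and 3. BRCA1 was there at 0.780 (0.600 to 1.004), 0.561 (0.481 to 0.652) and 0.745 (0.655 to 0.849) in ranges 1 to 3. For doxorubicin, in ranges 2 and 3, BRCA1 was at 0.729 (0.628 to 0.845) and 0.927 (0.823 to 1.05) in attached cells. In spheroids BRCA1 was at 0.966 (0.696 to 1.34) and 0.937 (0.749 to 1.18), and at 0.944 (0.711 to 1.26) in mitosis range 2. Only 0.774, 0.561, 0.745 and 0.729 had intervals below 1, so the other values show no clear change of direction.

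Unscaled totals moved the median log2 fold of all genes from -0.33, -0.41 and -0.34 to -1.25, -1.88 and -1.82 between cultures, from 0.13 to 0.59 for attached doxorubicin-resistant cells and from 0.00 to -0.42 for paclitaxel-resistant spheroids. The share of calls that were higher moved between cultures from 42.9%, 37.4% and 53.3% to 16.1%, 8.00% and 9.78%, and with size factors to 56.3%, 68.1% and 60.2%. Against treatment-naïve cells it moved with unscaled totals from 51.6% to 67.4% (doxorubicin, attached) and from 32.9% to 13.3% (paclitaxel, spheroid). Without the 5 most abundant genes it moved in spheroids to 49.4% for paclitaxel, and from 48.9% to 61.4% for doxorubicin. Between the drugs unscaled totals moved it from 58.1% to 73.4% in attached and from 72.7% to 89.7% in spheroid cells, where size factors gave 57.8%. Genes past the rule changed by over 1.5 times in 10 of 81 settings. Unscaled totals gave 186, 225 and 225 between cultures (112, 99 and 90), and no minimum gave 74 between resistant spheroids (44). A 1.5-fold threshold gave 122 and 146 for spheroids (76 and 88), 102 and 88 between the drugs (62 and 44), and 158 and 160 between cultures of resistant cells (99 and 90). Co-detection ratios moved within their spread in 57 of 72 settings and thinned shares in 34 of 72.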

Other observations

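The promoter windows of the members were also searched for the CCAAT box (CCAAT) and the CHR element (TTTGAA or TTCGAA), motifs known from promoters of mitosis genes, on both strands. The CHR element was in 0 windows of CDC7, CDCA7 and BRCA1, in 1 of 9 replication genes and in 10 of 14 mitosis genes. It was in 22.7% of the 256 panel genes that had a window and in 16.4% of all windows. The CCAAT box was in 1 BRCA1 window, at -175, in 4 of 9 replication genes and in 9 of 14 mitosis genes. It was in 42.2% of these panel genes and in 34.6% of all windows. The E2F-like motif, found in all 3 members, was in 5 of 14 mitosis genes. These counts describe letters in windows and show no regulation.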
